A study of Mus musculus with 6 samples.

Results

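The genes described are 10 enzymes of serine, glycine and one-carbon metabolism, Gcat, Tdh, Phgdh, Psat1, Psph, Shmt1, Shmt2, Mthfd2, Aldh1l2 and Asns, of 27179 genes in the bulk table. The set was chosen by the bulk count values of Gcat, which lay lower in cardiomyocytes grown with adult fibroblasts, and the rest were added for their place in the pathway. The bulk difference of the members is therefore given as a description, without a test. The study asked how the age of cardiac fibroblasts acts on immature mouse cardiomyocytes (imCMs). All cells came from C57BL/6 mice. In the group imCM-NF (2 bulk libraries) imCMs isolated shortly after birth were grown with neonatal cardiac fibroblasts, and in the group imCM-AF (2 bulk libraries) with adult cardiac fibroblasts. Both kinds of fibroblast were passaged in culture before they were combined with imCMs, more adult than neonatal fibroblasts were plated per imCM, and the imCMs were sorted by a cell dye before RNA was taken. Total counts ran from 9278909 to 12088577 per library, and libraries of a group differed by more than counting noise (chi-square per degree of freedom 8.60 and 8.42). Nothing in the labels says that the libraries of a group came from separate cultures, so their spread may be technical. A further pair of libraries, 1 labelled cardiomyocytes and 1 labelled fibroblasts, held single cells on nanowell chips.

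Cells make serine from a glycolytic intermediate in a chain of 3 enzymes, and serine hydroxymethyltransferases split serine into glycine and a carbon unit that is carried on folate. In mitochondria that unit is oxidised to formate, which leaves for the synthesis of purines and thymidylate, and glycine also goes into glutathione, haem, creatine and collagen. Glycine can also be released from threonine by Tdh and Gcat acting in sequence. In many cell types the transcription factor Atf4 raises the genes of serine synthesis, mitochondrial folate metabolism and asparagine synthesis when amino acids run short or other stresses arise.

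Atf4 acts through a composite element whose core is searched here as TGATGNAA, on both strands, in the 250 bases before and 50 bases after each RefSeq transcription start (GRCm38). A promoter was matched for 8 members, all except Tdh and Aldh1l2. The letters were found in 1304 of 32851 promoters (3.97%) and at 4.51% of 27025 genes. Among the members they were present in Asns alone (1 of 8). Of the Atf4 response list described below, 7 of 17 genes held them, of the synthetases for charging tRNA 5 of 13, and of amino acid transporters 2 of 12. None of 21 genes of serine and glycine use, 14 of the folate cycle or 13 of the methionine cycle held them. The 100 bases shown for each gene lie before a RefSeq start, read 5′ to 3′ on the gene's strand, with matches in capitals. Asns, the exchanger gene Slc7a11 and the glutathione-degrading Chac1 are shown because they hold the letters, and Mthfd2 and Gcat, the members with the largest rise and fall in bulk level, because they do not. The Asns stretch is chr6:7693210-7693309 (minus strand), that of Slc7a11 is chr3:50443614-50443713 (minus strand) and that of Chac1 is chr2:119351002-119351101 (plus strand). Mthfd2 is shown at chr6:83317605-83317704 (minus strand) and Gcat at chr15:79030774-79030873 (plus strand).
Asns: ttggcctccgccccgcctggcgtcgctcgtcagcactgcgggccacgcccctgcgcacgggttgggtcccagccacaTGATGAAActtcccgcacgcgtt
Slc7a11: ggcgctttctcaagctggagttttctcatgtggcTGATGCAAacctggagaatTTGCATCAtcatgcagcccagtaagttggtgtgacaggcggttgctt
Chac1: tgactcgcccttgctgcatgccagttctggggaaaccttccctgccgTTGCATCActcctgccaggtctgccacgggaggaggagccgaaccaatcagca
Mthfd2: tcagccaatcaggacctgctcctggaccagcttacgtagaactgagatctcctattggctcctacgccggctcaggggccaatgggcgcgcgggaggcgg
Gcat: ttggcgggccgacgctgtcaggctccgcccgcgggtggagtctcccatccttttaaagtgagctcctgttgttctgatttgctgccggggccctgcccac
The Asns match begins 23 bases before the start, those of Slc7a11 66 and 47 bases before it on opposite strands, and that of Chac1 193 bases before it. A match is a description of the letters in this window and not evidence of binding.

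Gcat, the mitochondrial enzyme that releases glycine at the end of threonine breakdown, spans chr15:79030874-79042531 on the plus strand. Its level, in counts-per-million after TMM scaling (CPM), was 8.69 and 11.5 in imCM-NF and 3.38 and 2.52 in imCM-AF. These rest on 78, 139, 37 and 30 counts. Both imCM-AF libraries lay below both imCM-NF libraries, and the log2 fold change of imCM-AF against imCM-NF was -1.79 ± 0.23 (SE, edgeR fit over 4 libraries). When any 1 library was left out it lay between -2.00 and -1.56. Galr3, which overlaps the end of Gcat, had 0 counts in every library (at most 0.323 CPM if 3 counts are allowed). Tdh, the enzyme before Gcat in that route (chr14:63492347-63509092, minus strand), had 1 count in the second imCM-NF library and 0 in the other libraries, and was too low to be tested. A count of 0 there allows at most 0.323 CPM.

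Most fibroblast and endothelial markers, and cell cycle genes, were lower in imCM-AF, as Gcat was. Fibroblast markers summed to 17256 and 19034 CPM with neonatal fibroblasts and to 11944 and 9449 CPM with adult ones, and 7 of the 12 markers were called lower (Postn, log2 fold change -1.87 ± 0.15, adjusted p = 1.6e-07, edgeR). Mfap5 was the fibroblast marker called higher, with 7.36 and 9.91 CPM with neonatal fibroblasts and 23.3 and 22.9 CPM with adult ones. The list median was -0.74, against 0.001 over all tested genes, and no fibroblast marker was at 0 in any library. Endothelial markers had 4 of 10 called lower and a median of -0.53, and cell cycle genes had 6 of 16 called lower and a median of -0.50. Macrophage markers had 2 of 9 tested called lower, smooth muscle markers 2 of 6 and epicardial markers 1 of 6. Epicardial markers summed to 153.6 and 104.1 CPM with neonatal fibroblasts and to 121.7 and 128.1 CPM with adult ones, which overlap (median -0.10). Over all 14041 tested genes, 4.99% were called lower and 6.15% higher. The marker C1qa was at 0 in 1 imCM-AF library. Without the second imCM-NF library the cell cycle calls fell to 2 and the macrophage calls to 0. Macrophage calls numbered 1 without the first library of either group and 3 without the second imCM-AF library, and smooth muscle calls 1 without the first imCM-NF library. Cardiomyocyte markers summed to 49869 and 36637 CPM with neonatal fibroblasts and to 47084 and 51499 CPM with adult ones, groups that overlap, with Pln and Ttn called higher of 14, both of them lost without the second imCM-NF or the second imCM-AF library (adjusted p from 0.053 to 0.13, edgeR). Fewer cells of a type and less RNA per cell cannot be told apart in these bulk samples, and the part of the marker shift in the level of Gcat or any other member was not tested.

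The serine synthesis enzymes had similar levels in both groups. Phgdh, which catalyses the entry step (chr3:98313171-98339969, minus strand), was at 47.6 and 61.5 CPM with neonatal fibroblasts and at 56.0 and 53.6 CPM with adult ones. The imCM-AF values fell between those of imCM-NF. Psat1, the aminotransferase of the next step (chr19:15905123-15925059, minus strand), was at 74.3 and 83.4 CPM with neonatal fibroblasts and at 75.6 and 64.9 CPM with adult ones, so the groups overlapped, with a log2 fold change of -0.17 ± 0.10. Psph, the phosphatase that finishes serine (chr5:129765558-129787443, minus strand), was at 20.3 and 24.7 CPM with neonatal fibroblasts and at 19.9 and 18.2 CPM with adult ones. Its groups were just apart and its log2 fold change was -0.25 ± 0.13. The start of Psph overlaps Cct6a, a chaperonin gene at 190 to 211 CPM in the 4 libraries, and with a kit that does not mark strand, reads from the shared bases cannot be told apart.

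Of the 4 members that act on folate, Mthfd2 and Aldh1l2 differed most between the groups, Shmt1 less, and Shmt2 by no more than its error. Mthfd2, the mitochondrial folate dehydrogenase and cyclohydrolase (chr6:83305704-83326011, minus strand), was at 62.8 and 76.3 CPM with neonatal fibroblasts and at 134.9 and 123.4 CPM with adult ones. That is the largest rise among the members, with a log2 fold change of 0.89 ± 0.11. Aldh1l2, a mitochondrial formyl-folate dehydrogenase (chr10:83487447-83534146, minus strand), was at 35.7 and 39.7 CPM with neonatal fibroblasts and at 59.2 and 61.9 CPM with adult ones, with a log2 fold change of 0.68 ± 0.10. Shmt1, the cytosolic serine hydroxymethyltransferase (chr11:60788897-60811265, minus strand), was at 16.4 and 18.0 CPM with neonatal fibroblasts and at 24.5 and 26.4 CPM with adult ones, with a log2 fold change of 0.56 ± 0.13. Its mitochondrial counterpart Shmt2 (chr10:127517123-127522444, minus strand) was at 150.8 and 169.3 CPM with neonatal fibroblasts and at 170.5 and 171.3 CPM with adult ones. The groups of Shmt2 were apart by little, with a log2 fold change of 0.09 ± 0.10, and its overlapping neighbour Ndufa4l2 was at 21 to 30.3 CPM.

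Asns, which makes asparagine from aspartate and is a known target of Atf4 (chr6:7675165-7693209, minus strand), was at 78.0 and 88.8 CPM with neonatal fibroblasts and at 130 and 116.8 CPM with adult ones. Its log2 fold change was 0.56 ± 0.10, just under the fold threshold of 0.58 used for calls. Of the 9 members that passed the filter on low values, Mthfd2 and Aldh1l2 counted as higher and Gcat as lower by the rule for calls (that threshold and an adjusted p under 0.05), which serves here only to describe them. Over all 14041 tested genes 11.1% were called, 6.15% higher and 4.99% lower. The libraries of 5 members lay higher in imCM-AF without overlap and those of 2 lay lower, where 32.1% and 33.8% of all tested genes did so. Because Gcat in this contrast defined the set, nothing is read from these counts. Shmt1 and Asns also passed both thresholds without scaling beyond the library total, without the second imCM-NF library, and each without 1 imCM-AF library (the first for Shmt1, the second for Asns).

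**Figure D1:**
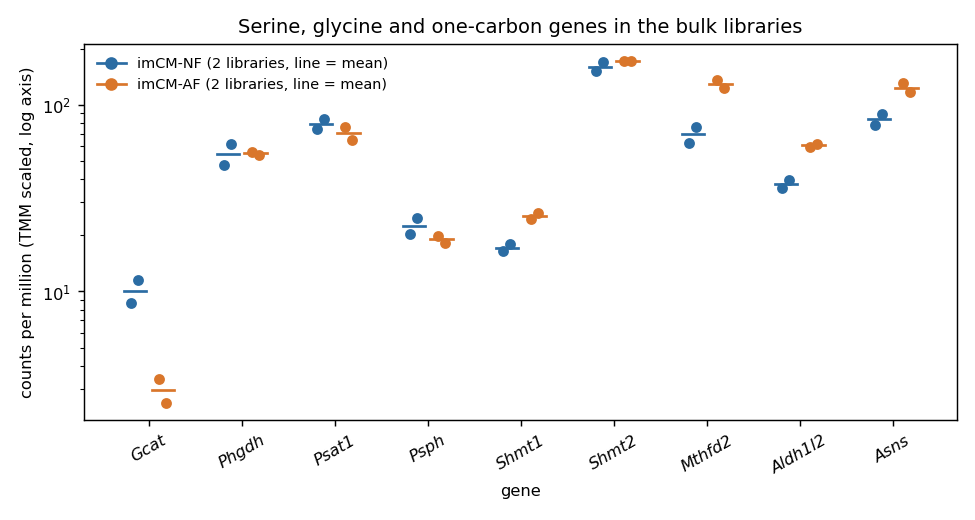
CPM (TMM scaled, log axis) of the 9 members above the filter on low values in the 2 imCM-NF and the 2 imCM-AF bulk libraries, with a point per library and a line at each group's mean. Gcat lies lower in imCM-AF, Mthfd2, Aldh1l2, Shmt1 and Asns lie higher, and Phgdh and Psat1 overlap between groups.

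Per kilobase of exon, the mean level over the 4 libraries (RPKM, from the union of annotated exons) was highest for Shmt2 at 53.2, followed by Asns at 37.8 and Mthfd2 at 28.5. Phgdh was at 22.0 and Psat1 at 17.5 RPKM, and their library ranges (19.1 to 24.7 and 15.2 to 19.6) overlapped. Aldh1l2 at 6.55, Shmt1 at 5.49 and Psph at 4.80 RPKM overlapped as well, while Gcat was at 2.73 and Tdh at 0.0079 RPKM. In imCM-NF the Gcat libraries (3.65 and 4.82 RPKM) overlapped those of Shmt1 (4.22 and 4.64), Aldh1l2 (4.75 and 5.28) and Psph (4.69 and 5.71), and in imCM-AF (1.42 and 1.06) they lay under those of the other 8 tested members.

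Beyond the members, the folate cycle list (19 genes, all tested) had 1 call, where 11.1% of all tested genes were called. The folate receptor Folr1, named after its values were seen since its mean CPM was under 5, fell, from 5.57 and 6.44 CPM with neonatal fibroblasts to 2.83 and 2.77 CPM with adult ones (log2 fold change -1.11 ± 0.24, adjusted p = 0.003, edgeR). Without the second imCM-NF library Folr1 was not called (adjusted p = 0.052). The list median was -0.07. Neither Mthfd1 (-0.06 ± 0.09, adjusted p = 0.69), the cytosolic trifunctional enzyme, nor Mthfd1l (-0.09 ± 0.11, adjusted p = 0.58), which releases formate in mitochondria, passed the test in edgeR. The methionine cycle and transsulfuration list had 0 calls of 11 tested genes in edgeR, DESeq2 and limma-voom, with 5 genes at an unadjusted p under 0.05 and a median log2 fold change of 0.11.

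Genes that use serine or glycine moved in both directions (19 tested, 2 called higher and 2 lower, median 0.35). These counts stand beside 6.15% called higher and 4.99% called lower over all tested genes. In bulk, the subunits of the enzyme that starts glutathione synthesis both rose with adult fibroblasts. Gclm did not rise in the single-cell sums given below. The modifier subunit Gclm was at 24.3 and 29.1 CPM with neonatal fibroblasts and at 54.7 and 48.4 CPM with adult ones (log2 fold change 0.94 ± 0.11, adjusted p = 1.5e-05, edgeR). The catalytic subunit Gclc was at 29.4 and 32.6 CPM with neonatal fibroblasts and at 47.0 and 54.9 CPM with adult ones (0.71 ± 0.11, adjusted p = 0.00017, edgeR). Gamt, which methylates guanidinoacetate to creatine, fell from 9.47 and 11.2 CPM with neonatal fibroblasts to 4.75 and 4.96 CPM with adult ones (-1.10 ± 0.20, adjusted p = 0.00064, edgeR). Gldc, the decarboxylase of the glycine cleavage system, fell from 10 and 11.5 CPM to 7.21 and 6.05 CPM (-0.71 ± 0.19, adjusted p = 0.0097, edgeR), a call that was lost without the second imCM-NF library (adjusted p = 0.12) or without the second imCM-AF library (adjusted p = 0.13).

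Of 15 amino acid transporters tested, 2 were called and both were higher, where 11.1% of all tested genes were called. Slc7a11, the cystine and glutamate exchanger, was at 13.9 and 15.4 CPM with neonatal fibroblasts and at 35.2 and 33.9 CPM with adult ones (log2 fold change 1.23 ± 0.12, adjusted p = 1.8e-06, edgeR). The cationic amino acid carrier Slc7a3 was at 3.01 and 2.56 CPM with neonatal fibroblasts and at 9.40 and 9.49 CPM with adult ones (1.77 ± 0.22, adjusted p = 2.3e-05, edgeR). The list median was -0.08, and no transporter was called lower. Slc7a11 was low in single-cell clusters with cardiomyocyte markers, as given below.

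The Atf4 response list, which leaves out the members, had 4 of 17 tested genes called higher and 0 called lower, with a median of 0.24. Among all tested genes 6.15% were called higher and 4.99% lower. Chac1, which degrades glutathione, was at 20.5 and 15.7 CPM with neonatal fibroblasts and at 41.9 and 48.6 CPM with adult ones (log2 fold change 1.34 ± 0.13, adjusted p = 1.7e-06, edgeR). Ddit3, the stress factor also known as CHOP, was at 31.1 and 34.0 CPM with neonatal fibroblasts and at 72.5 and 75.7 CPM with adult ones (1.18 ± 0.10, adjusted p = 2.7e-07, edgeR). The pseudokinase Trib3 (1.12 ± 0.12, adjusted p = 2.8e-06, edgeR) and the secreted factor Gdf15 (0.80 ± 0.11, adjusted p = 4.3e-05, edgeR) made up the rest. The mRNA of Atf4 itself had 386 and 403 CPM with neonatal fibroblasts and 406 and 381 CPM with adult ones, groups that overlap. The cytosolic synthetases that charge tRNA, another group under Atf4, had 0 calls of 20 in edgeR, DESeq2 and limma-voom, with 9 at an unadjusted p under 0.05, log2 fold changes from -0.29 to 0.43 and a median of 0.10. At an adjusted p under 0.05 alone (edgeR), Iars, Lars, Nars and Farsb were higher and Farsa lower among the synthetases, where 27.0% of all tested genes passed. The part of Atf4 in these levels was not tested.

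**Figure D2:**
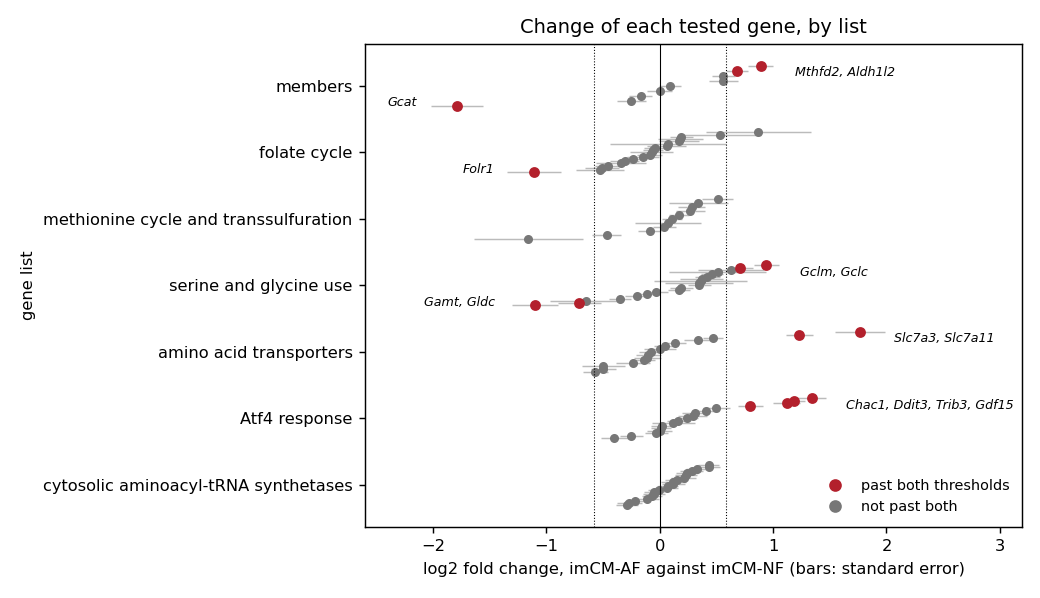
Log2 fold change of imCM-AF against imCM-NF (bars: standard error) for each tested gene of 7 lists, 1 row per list, with red points past both thresholds (adjusted p of 0.05 in edgeR and the dotted lines at 0.58). The 4 called genes of the Atf4 response list and the 2 called transporters lie to the right, and the synthetases lie between -0.29 and 0.43.

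The single-cell libraries gave the members in cells of both kinds. The wells of each chip carry a type name, and 16 well types other than controls held 2462 wells with counts, of which 2247 passed the filters (at least 500 genes, over 50% of read pairs aligned, total of unique molecular identifiers, UMIs, within 2 SD of the mean). The cardiomyocyte chip held NCM0, NFNCM and AFNCM wells and the fibroblast chip NF0, AF0, NF and AF wells, with numbered types of each. The names are the authors' own and the labels name no replicates, so no test was made. Levels are counts-per-million of UMIs summed over wells (UMI CPM) with exact Poisson 95% intervals that cover counting error only. The median of kept wells was 18238 UMIs on the cardiomyocyte chip and 27809 on the fibroblast chip, 269 barcodes of the barcode set occurred on both chips, and the 10 negative control wells held 0 UMIs of the members.

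Over all wells of a type, Gcat showed no drop in AFNCM against NFNCM wells. Its level was 5.06, 2.90 and 3.25 UMI CPM in the 3 NFNCM well types and 7.28, 7.27 and 3.91 in the 3 AFNCM well types, and these overlap. Summed over well types the level was 3.68 UMI CPM (interval 2.71 to 4.87, 48 UMIs) in NFNCM and 5.97 (4.80 to 7.33, 90 UMIs) in AFNCM wells. Of the 90 AFNCM UMIs, 50 came from the 96 AFNCM wells of the fibroblast-like cluster 4 described below, which held 1 NFNCM well. AFNCM wells of cluster 7, which carries cardiomyocyte markers, were at 3.55 (2.17 to 5.49, 20 UMIs). In the cardiomyocyte-like cluster 1, NFNCM wells were at 2.33 (1.17 to 4.18) and AFNCM wells at 7.55 (0.914 to 27.3, 2 UMIs). The part of cell mixture in these levels was not tested. On the fibroblast chip Gcat was at 8.09 and 14.4 UMI CPM in NF and at 7.11 and 4.83 in AF wells, so both AF values lay under both NF values, while NF0 (8.08 and 8.83) and AF0 (3.48 and 8.22) overlapped. Summed over well types, Gcat was at 11.1 UMI CPM in NF and 6.04 in AF wells, and without the well filters at 10.7 and 9.80. Each well type held 11 to 67 Gcat UMIs, of which 15.2% to 45.0% came from 1 well. Tdh had 8 UMIs over all kept wells.

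Psat1, Psph and Asns were most abundant in AF wells. Psat1 was at 137 and 178 UMI CPM in AF wells, against 102 and 119 in NF wells and 62.9 to 87.6 in AF0 and NF0 wells. Psph was at 117 and 105 UMI CPM in AF wells and at 62.5 and 42.0 in NF wells. Asns was at 108 and 130 UMI CPM in AF wells and at 35.3 and 55.5 in NF wells. In each of these genes both AF well types lay above every other well type of either chip. Phgdh differed less, with 12.1 and 18.6 UMI CPM in AF wells and 13.2 and 12.3 in NF wells.

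The folate enzymes varied more between well types. Shmt2 was at 73.3 and 125 UMI CPM in AF wells and at 51.2 and 57.0 in NF wells. As for Psat1, Psph and Asns, both AF values of Shmt2 lay above every other well type of either chip. Mthfd2 was at 63.6 and 127 UMI CPM in AF wells and at 36.1 and 60.5 in NF wells, and the first AF value lay under both NCM0 values. Aldh1l2 was at 31.9 and 130 UMI CPM in AF wells and at 8.90 and 17.9 in NF wells, so the second AF well type stood far above the first. Shmt1 was at 15.1 and 14.5 UMI CPM in AF wells and at 5.12 and 6.46 in NF wells. A single well held 57.1% of the 70 Shmt1 UMIs of the first AF well type and 26.7% of the 60 of the second. In the NF well types a single well held 21.1% of 19 and 45.5% of 22 UMIs. The sum of the 10 members was 565 and 833 UMI CPM in AF wells, 323 and 385 in NF wells, and 263 to 354 in AF0 and NF0 wells.

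On the cardiomyocyte chip the sum of the members was 244, 351 and 313 UMI CPM in AFNCM wells, 201, 234 and 210 in NFNCM wells and 267 and 310 in NCM0 wells. Over all wells of a type, AFNCM and NFNCM well types did not overlap in this sum. Shmt2 (43.1, 32.1 and 38.3 in AFNCM, 18.5, 18.3 and 25.3 in NFNCM) and Psat1 (46.8, 69.5 and 58.5 in AFNCM, 42.8, 34.5 and 43.3 in NFNCM) were apart in the same way, and so was Mthfd2 by little (56.3, 68.8 and 54.6 against 48.3, 45.9 and 54.1). Of the 4695 member UMIs of AFNCM wells, 1876 came from cluster 4. So did 398 of 903 for Psat1 and 185 of 560 for Shmt2. AFNCM wells of cluster 7 had a sum of 182 (171 to 193), and NFNCM wells of cluster 1 of 211 (198 to 224). In these wells Psat1 was at 30 (25.7 to 34.9) and 26.7 (22.3 to 31.8). Shmt2 was at 22.6 (18.8 to 26.9) and 11.9 (8.98 to 15.4), and Mthfd2 at 45 (39.6 to 50.9) and 67.3 (60.1 to 75.1). The part of cell mixture in these differences was not tested. Asns was at 34.2, 78.9 and 76.4 UMI CPM in AFNCM and at 33.9, 42.1 and 27.0 in NFNCM wells, which overlap through the first AFNCM well type. Aldh1l2 overlapped between AFNCM (18.8 to 25.4) and NFNCM (19.5 to 33.2), and Mthfd2 was highest on this chip in NCM0 wells, at 90.9 and 104 UMI CPM. Summed over well types, Gclm was at 63.9 (59.6 to 68.3) in NFNCM and 60.0 (56.1 to 64.0) in AFNCM wells. It was at 70.0 in NF and 60.7 in AF wells. Chac1, Ddit3, Trib3, Gdf15, Slc7a3 and Slc7a11 were higher in AFNCM than in NFNCM wells. Of the 239 Slc7a11 UMIs of AFNCM wells, 121 came from cluster 4, at 40.2 UMI CPM. AFNCM wells of cluster 7 had Slc7a11 at 1.78 (0.852 to 3.27) and NFNCM wells of cluster 1 at 0.637 (0.131 to 1.86). Col1a1, a fibroblast collagen, was at 734 to 1104 UMI CPM in AFNCM wells and at 242 to 431 in NFNCM wells. In bulk, Col1a1 and most fibroblast markers moved the other way. More fibroblasts and more Col1a1 per fibroblast cannot be told apart from this sum alone. By cluster, the 96 AFNCM wells of cluster 4 had Col1a1 at 3018 (2956 to 3080) UMI CPM. NFNCM wells numbered 42 in the unnamed cluster 5, at 1061 (1005 to 1118), and 34 in the fibroblast-like cluster 6, at 1069 (1011 to 1129). The part of cell numbers or of level per cell in these differences was not tested.

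**Figure D3:**
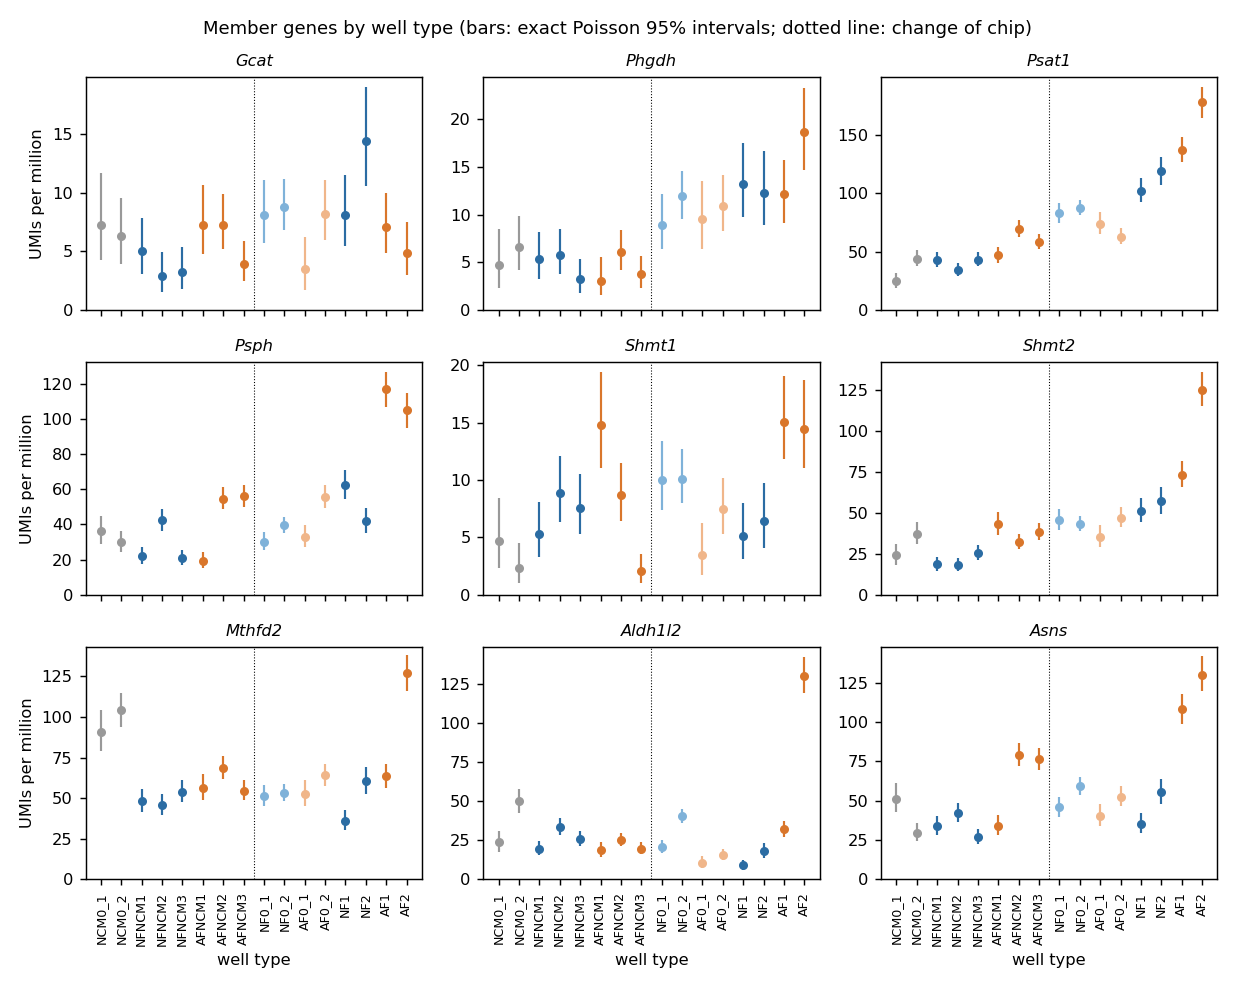
UMI CPM of 9 members in each of 16 well types, NCM0, NFNCM and AFNCM on the cardiomyocyte chip left of the dotted line and NF0, AF0, NF and AF on the fibroblast chip right of it, with exact Poisson 95% intervals. Asns, Psat1, Psph and Shmt2 are highest in both AF well types, and Aldh1l2 reaches 130 in the second AF well type alone. Over all wells of a type, Gcat shows no drop from NFNCM to AFNCM wells.

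Kept wells fell into 15 clusters, and names were given only from listed markers. Clusters 1, 2, 10 and 11 were cardiomyocyte-like, 4 and 6 fibroblast-like, 9 and 13 endothelial-like and 12 macrophage-like. Cluster 6 took its name from 3 of 12 fibroblast markers, against 9 in cluster 4, and its 10 leading genes held no fibroblast marker but the proliferation genes Prc1 and Mcm10. Cluster 7 had 13 of 14 cardiomyocyte markers raised but stayed unnamed because Krt18, listed as an epicardial marker, was among its leading genes, together with interferon-response genes such as Igtp. Cluster 7 held 131 of 515 AFNCM and 1 of 523 NFNCM wells, while cluster 1 held 26 AFNCM and 215 NFNCM wells. Cluster 4 held 96 of the 515 AFNCM wells, 158 of 219 AF wells and 1 NFNCM well. Cardiomyocyte-like cells are therefore not compared between well types as a class, and no doublet caller was run.

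Over all wells of a cluster, Gcat was lower in clusters 1, 2 and 7, which carry cardiomyocyte markers, than in fibroblast-like clusters. It was at 3.23 (interval 2.11 to 4.74) UMI CPM in cluster 1, 3.76 (2.06 to 6.31) in cluster 2 and 3.45 (2.11 to 5.33) in cluster 7. In fibroblast-like clusters it was at 9.05 (7.32 to 11.1) in cluster 4 and 10.1 (8.02 to 12.7) in cluster 6. Split by kind of well, cluster 4 had 16.6 (12.3 to 21.9) in AFNCM and 5.89 (4.28 to 7.91) in AF wells. Of the 50 UMIs in its AFNCM wells, 32% came from 1 well. The AF interval overlaps those of clusters 1, 2 and 7. Cluster 6 had 11 in NF0, 8.55 in NF and 1.66 (0.201 to 6, 2 UMIs) in NFNCM wells. Cluster 5, unnamed with Postn and Thy1 among its leading genes and held mostly by NF and NF0 wells, had 9.27 (7.51 to 11.3), and the endothelial-like cluster 13 had 9.98. Tnnt2, the cardiac troponin, was at 16149 UMI CPM in cluster 1 and still at 553 in cluster 4 and 1421 in cluster 6. The part of free RNA or of wells with more than 1 cell in these levels was not tested.

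The sum of the members was also lower in clusters 1, 2 and 7 than in clusters 4, 5 and 6, but the latter ranked otherwise than for Gcat. The sum was 213 (203 to 223) UMI CPM in cluster 1, 166 (153 to 180) in cluster 2 and 181 (170 to 192) in cluster 7, against 669 (653 to 685) in cluster 4, 394 (380 to 409) in cluster 6 and 321 (310 to 332) in cluster 5. Cluster 4 had Psat1 at 150, Asns at 125, Psph at 107 and Mthfd2 at 99.7 UMI CPM, and cluster 6 had 114, 49.7, 44.1 and 61.2. The cardiomyocyte-like cluster 11, of 30 wells, was an exception at 440 (392 to 493). Within cluster 4, AFNCM wells had a sum of 623 and AF wells of 686 UMI CPM. In the unnamed cluster 3, whose wells were shallow, the sum was 377 (346 to 411) in AFNCM and 113 (78.5 to 157) in NFNCM wells, and in the unnamed cluster 8 it was 360 (327 to 395) and 207 (185 to 232). In cluster 1 it was 151 (108 to 205) in the 26 AFNCM wells and 211 (198 to 224) in the 215 NFNCM wells. The intervals of cluster 1 overlap and its AFNCM wells held 40 member UMIs, so no direction is read there. In the AFNCM wells of cluster 3, a single well held 42.2% of the Shmt2 UMIs and a single well 30.7% of the Mthfd2 UMIs. The highest sum stood in the unnamed cluster 14 at 811 (762 to 863), whose cells were shallow, with a median of 7248 UMIs. There a single well held 88.9% of the Shmt1, 67.1% of the Aldh1l2 or 56.5% of the Shmt2 UMIs, a spread that the interval does not cover.

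**Figure D4:**
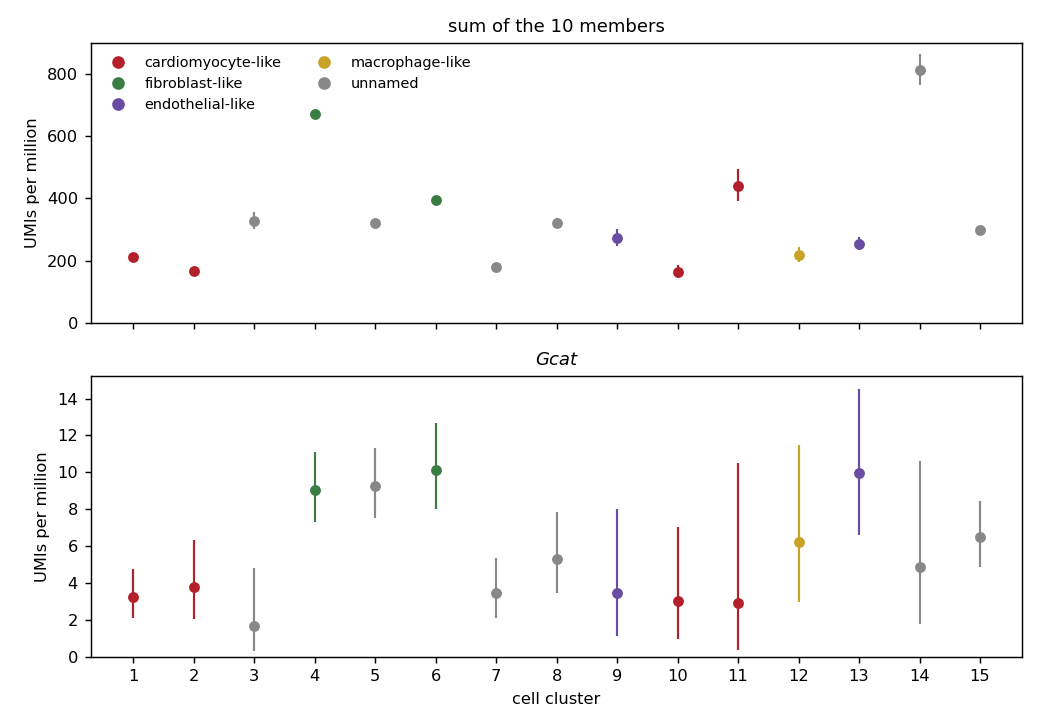
UMI CPM of the 10 members summed (upper panel) and of Gcat (lower panel) in 15 cell clusters, coloured by the name their markers gave, with exact Poisson 95% intervals. Fibroblast-like clusters 4 and 6 lie above the cardiomyocyte-like clusters 1, 2 and 10 in both panels.

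Over the 16 well types, several members varied together. The Pearson correlation of log2 levels (UMI CPM plus 1) was 0.88 for Psat1 and Shmt2, 0.84 for Psph and Asns, 0.82 for Phgdh and Psat1 and 0.74 for Mthfd2 and Aldh1l2. Gcat followed none of them closely, with values from -0.15 (Aldh1l2) to 0.41 (Phgdh). It rested on 11 to 67 UMIs per well type, and counting error at such levels can lower a correlation. The genes most like Gcat among 12122 genes with at least 200 UMIs were Smchd1 (0.81), Srek1 (0.81) and Gm6807 (0.80). As the highest of so many values over 16 points, they may be high by chance. These are descriptions over points that share a pair of chips and unequal mixtures of cells.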

How the data were processed

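Bulk values are raw counts per Entrez gene that the authors deposited. Per the study's methods, reads were aligned to mm10 with subread, and featureCounts assigned unique reads to RefSeq genes, with a library kit that does not mark strand. For the single cells, read pairs with a valid barcode were trimmed, screened for contaminants, aligned with STAR and assigned to Ensembl genes by featureCounts. The submitters' processing notes name STAR 2.5.2b and Subread 1.4.6-p1. Single-cell values are UMI counts that the authors deposited for each well, beside a report of read pairs per well. Spike-in columns (85 and 79 per chip) were not used.

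Genes with CPM over 1 in at least 2 libraries entered the test (14041), which was the quasi-likelihood test of edgeR 4.0.16 (R 4.3.3) after TMM scaling, with group as the only term. A gene was called where its log2 fold change passed 0.58 in either direction and its Benjamini-Hochberg adjusted p was under 0.05. The SE of a log2 fold change is its absolute value divided by the square root of the edgeR F statistic. The study used an RPKM filter and limma. The fit was tested on simulated data. Identifiers without a symbol (1904) held 3.52% of counts. Symbols, coordinates and promoters come from RefSeq (GRCm38), and exon lengths from GENCODE. The members, lists and tests were chosen with earlier results of these data known. Of each list, up to 4 called genes per direction with a mean CPM of at least 5 and libraries that do not overlap are named, with genes that overlap a member and the 3 genes most like Gcat. Values of other genes named in the text, such as Atf4, Mthfd1 and Mthfd1l, were picked after they were seen. Replicate numbers did not pair the libraries.

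Mitochondrial genes were left out of UMI totals. Genes seen in at least 10 wells were scaled to 10000 UMIs per cell and log transformed. scanpy 1.11.5 then took 2000 variable genes, 10 principal components, 30 neighbours and Leiden clustering at a resolution of 1. Alternatives were another scaling, DESeq2 1.42.0, limma-voom 3.58.1, other filters and thresholds, left-out libraries, a replicate block, other well filters and cells called by marker sums.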

Additional observations from a re-analysis of the deposited data

How the results depend on the processing

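Gcat, Mthfd2 and Aldh1l2 kept their direction in every alternative fit and without any 1 library. Calls over all tested genes numbered 1564, and 3789 at an adjusted p alone and 565 with an absolute log2 fold change over 1. Calls among the members numbered 3, and 5 with library total scaling, 5 at an adjusted p alone and 1 with the fold threshold of 1, at which Mthfd2 (0.89) and Aldh1l2 (0.68) were not called. Shmt1 and Asns were called with library total scaling (0.60 each) and at an adjusted p alone (0.56 each), and library total scaling put 63.6% of calls higher, against 55.2%. Phgdh, at 0 within its error, turned to 0.01 with RLE scaling, DESeq2, limma-voom, a CPM minimum of 5 or a replicate block, and to 0.04 with library total scaling. At an adjusted p alone the calls were 3 for the folate cycle, 2 for the methionine cycle, 8 for serine and glycine use, 5 for transporters, 7 for the Atf4 response and 5 for the synthetases, and with the fold threshold of 1 serine and glycine use had 1. Leaving out 1 library gave 879 (without the second imCM-NF library) to 1929 calls (without the first), 3 to 5 among the members, 0 to 2 for the folate cycle, 0 to 1 for the methionine cycle, 3 to 5 for serine and glycine use, 2 to 5 for transporters and 4 to 6 for the Atf4 response. Log2 fold changes then ran from -2.00 to -1.56 for Gcat, -0.17 to 0.21 for Phgdh, -0.27 to -0.06 for Psat1, -0.38 to -0.08 for Psph, 0.50 to 0.64 for Shmt1, 0.01 to 0.19 for Shmt2, 0.76 to 1.05 for Mthfd2, 0.61 to 0.77 for Aldh1l2 and 0.47 to 0.67 for Asns. A replicate block gave 1430 calls, 1420 of them shared, and same-numbered libraries deviated with a correlation of -0.176. The crossed pairing, chosen after seeing the data, gave 1668 calls. DESeq2 gave 1078 calls. The cause of these shifts was not tested. In single cells the sum of the members was 207 UMI CPM in NFNCM wells as a mean over wells, 321 in AFNCM wells as a mean over wells and 296 without filters, 355 in NF0 wells without filters, 336 in NF wells without filters and 373 as a mean over wells. With cells called by marker sums it was 230 in cardiomyocyte-like and 424 in fibroblast-like cells. The 2 libraries of each group and few UMIs per gene and well limit the precision.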
